A study of Mus musculus with 8 samples.

Results

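The Wnt ligands, their receptors and the secreted proteins that hold them in check were examined in nuclear RNA of GABAergic neurons from mouse cortex. Members were the protein-coding genes whose symbol belongs to the Wnt, frizzled (Fzd), Dickkopf (Dkk), secreted frizzled-related (Sfrp, Frzb), R-spondin (Rspo), Lgr4 to Lgr6 or Kremen families, together with Lrp5, Lrp6, Wif1, Notum and Axin2. The rule uses names and no measured value, and it gave 53 of the 55450 genes in the tables. Of these, 37 had enough reads to be tested. The 4 control mice had the genotype Thra+/+ and the mutants Thra+/AMI. AMI denotes an allele of Thra, the gene of thyroid hormone receptor α, whose product blocks the action of the hormone receptor in a dominant-negative way. Nuclei of both groups were sorted by a nuclear fluorescent reporter that, like the mutant allele, needs Cre recombinase, and a Cre driver directed to GABAergic neurons supplied it. The promoter of that driver is not named in the labels, and the mice are described only as juvenile. Each library came from the cortex of 1 animal. The table of mutant 10 repeated that of mutant 7, with 0 of 55220 genes different, so the pair was counted as 1 sample and 4 controls were compared with the 3 mutants 6, 7 and 8. Which of the animals 7 and 10 gave those counts is not known. For control 4 and mutants 6, 7 and 8 the library name in the labels differs from that in the name of the table, and each table was taken as belonging to the sample GEO links it to.

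Wnt proteins are secreted lipid-modified ligands. They bind frizzled receptors and, in the branch that works through β-catenin, the co-receptors Lrp5 and Lrp6. R-spondins bound to Lgr receptors keep frizzleds on the cell surface and so strengthen the signal, while Dickkopf proteins block Lrp5 and Lrp6, and Sfrp proteins and Wif1 bind the ligands themselves. In the brain the pathway is known for roles in patterning, axon growth, synapse formation and the growth of blood vessels.

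Total counts ran from 11797788 to 13804734 in controls and from 10747169 to 12941251 in mutants. Levels are given as CPM, read counts scaled to a common depth with TMM factors. Before those factors 1 CPM stood for 10.7 to 13.8 reads. Thra itself averaged 114 ± 9.35 CPM over controls (SD, n = 4) and 87.5 ± 9.39 CPM over mutants (SD, n = 3), with reads of both alleles added together. Of its exon bases 5.70% are shared with Nr1d1 on the opposite strand. It did not pass the threshold (edgeR, log2 fold change -0.39, SE 0.11, adjusted p 0.0543). Genes of the enzymes that make GABA were present, Gad1 (569 ± 63.2 and 637 ± 43.9 CPM) and Gad2 (403 ± 15.1 and 435 ± 65.4 CPM). Slc32a1, another GABAergic marker, was lower at 24.7 ± 2.61 and 24.3 ± 6.90 CPM. There were no unsorted nuclei to compare with, so the purity of the sort was not tested. Pvalb, the gene of parvalbumin, averaged 41.0 ± 5.91 CPM over controls and 1.81 ± 0.682 CPM over mutants (edgeR, log2 fold change -4.48). Controls 1 and 4 stood apart from each other by gene length: across 16448 genes their log2 ratio had a Spearman correlation of -0.61 with genomic length, against 0.18 for controls 2 and 3. Control 4 and mutant 8 had almost no reads of Y-linked genes (4 and 3 reads, against 5094 to 6644 in the other libraries).

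Of the 37 tested members, 3 were higher in mutants (Wnt7a, Wnt7b and Dkk2), 2 were lower (Lgr5 and Fzd6) and 32 did not pass. The test was edgeR's quasi-likelihood test, with p-values adjusted over all 16448 tested genes and a call at an adjusted p under 0.05. The share called was 13.5% of the tested members, beside 9.42% of all tested genes, of which 4.63% were higher and 4.78% lower. The median log2 fold change of mutant over control was 0.03 for the members and -0.01 for all tested genes. The groups did not overlap in 12 of the 37 members (32.4%), beside 22.0% of all tested genes. All 37 exceeded the filter's minimum level in libraries of both groups. The count of called members rested on single libraries: it was 3 without any 1 of control 2, control 3, mutant 6, mutant 7 and mutant 8, 6 without control 1 and 9 without control 4. Dkk2, Lgr5 and Wnt7a were called in each of these fits. Libraries are bulk RNA, in which fewer cells of a type and less RNA per cell cannot be told apart.

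**Figure D1:**
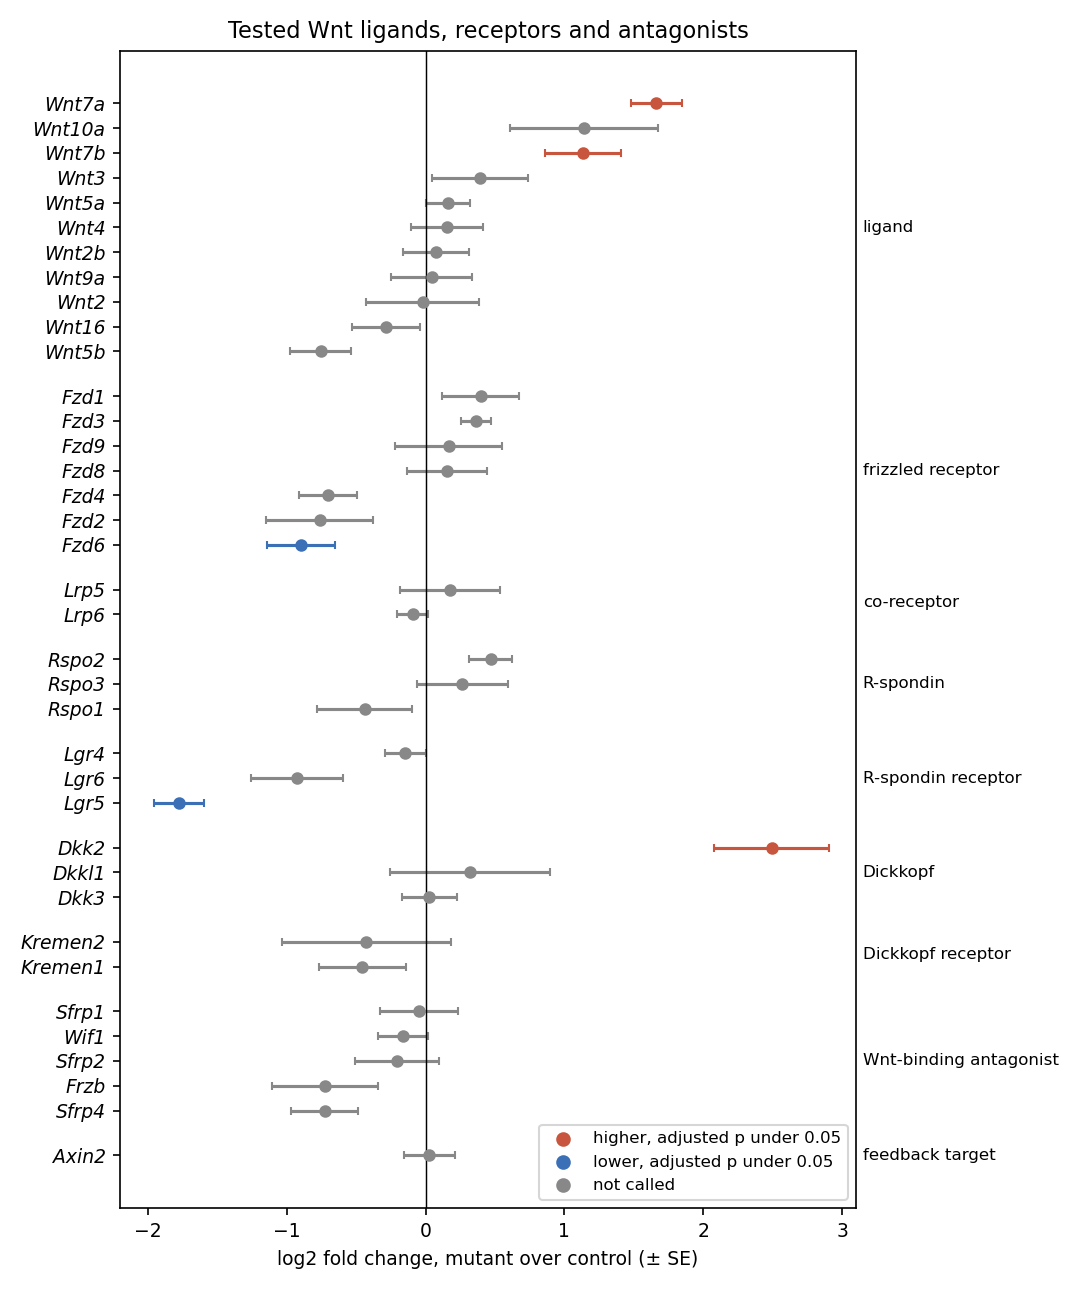
Log2 fold change of mutant over control for the 37 tested genes, grouped by role, with the standard error as bars; red marks called higher, blue called lower and grey not called. Dkk2 lies farthest right at 2.49 and Lgr5 farthest left at -1.78.

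Among the ligands, Wnt7a and Wnt7b were higher in mutants, and the other 9 tested genes were not called. Wnt7a and Wnt7b are close relatives that act in neural development and, from neurons and glia, on brain blood vessels. Wnt7a (ENSMUSG00000030093.7, GRCm38 chromosome 6, 91363981 to 91411363, minus strand) was at 5.63, 5.14, 7.00 and 5.57 CPM in controls 1 to 4 and at 18.1, 21.5 and 16.0 CPM in mutants 6, 7 and 8. The lowest mutant was far above the highest control, and the values rest on 68 to 92 control reads and 205 to 234 mutant reads. Means were 5.83 ± 0.809 CPM (SD, n = 4) and 18.5 ± 2.75 CPM (SD, n = 3), a ratio of 3.18. It was called higher (log2 fold change 1.66, SE 0.18, edgeR adjusted p 0.000159) and kept its call in all 16 alternatives, at 1.55 to 1.77.

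Wnt7b (ENSMUSG00000022382.15, chromosome 15, 85535437 to 85582473, minus strand) was less abundant than Wnt7a, at 0.357 ± 0.0694 against 1.84 ± 0.255 CPM per kb of exons in controls (SD, n = 4). Controls 1 to 4 had 2.14, 1.59, 1.90 and 1.37 CPM and mutants 6, 7 and 8 had 4.46, 3.76 and 3.36 CPM. The groups did not overlap, on 17 to 27 and 41 to 57 reads. It was called higher (log2 fold change 1.14, SE 0.27, edgeR adjusted p 0.0212). Leaving out control 2, control 3 or a single mutant ended the call, with adjusted p-values of 0.0502 to 0.107 and log2 fold changes of 1.02 to 1.24, as did leaving out control 4 and mutant 6 together (0.92, adjusted p 0.121). Of its exon bases 6.61% are shared with AU022754 on the opposite strand, which had 6 to 21 reads.

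**Figure D2:**
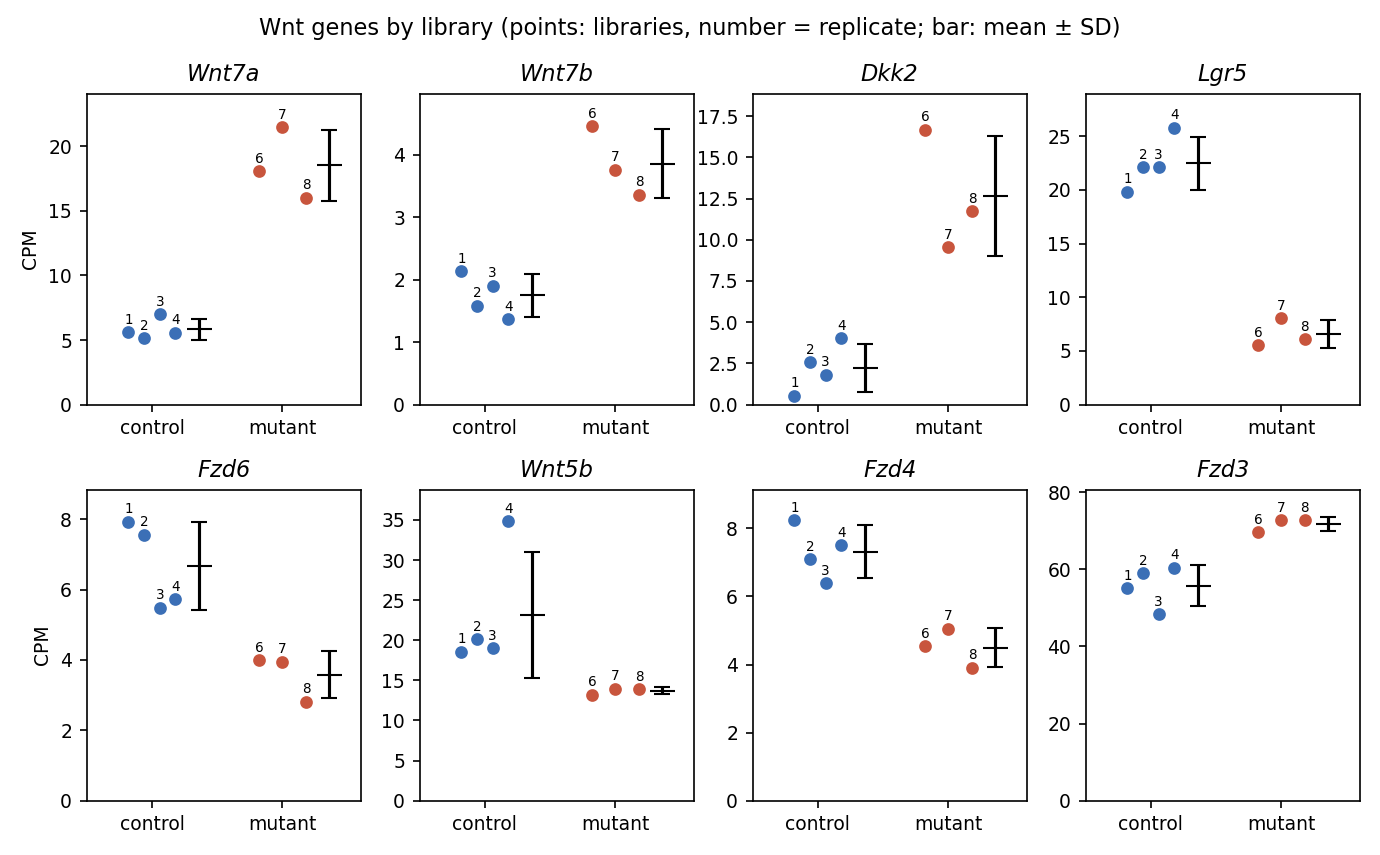
CPM of 8 Wnt genes in each library, with the replicate number above each point and the mean ± SD beside each group. In the top row the mutants lie above the controls for Wnt7a, Wnt7b and Dkk2 and below them for Lgr5; in the bottom row Fzd6 was called and Wnt5b, Fzd4 and Fzd3 were just outside the threshold.

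RefSeq promoter windows (build GRCm38.p6) were at hand for 34 of the 53 members and for 2 of the 5 called ones, Wnt7a and Dkk2, both higher in mutants. The 250 bases before each start are shown because these are the called genes with a window and the windows differ in base composition. Capitals mark each CpG, a C followed by a G. Wnt7a lies at chr6:91411354-91411603 on the minus strand and Dkk2 at chr3:132085042-132085291 on the plus strand.
Wnt7a: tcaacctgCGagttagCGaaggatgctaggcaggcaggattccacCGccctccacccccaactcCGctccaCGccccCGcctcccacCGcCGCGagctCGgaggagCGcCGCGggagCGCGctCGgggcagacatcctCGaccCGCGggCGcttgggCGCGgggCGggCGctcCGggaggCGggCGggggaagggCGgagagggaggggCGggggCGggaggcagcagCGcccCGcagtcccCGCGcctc
Dkk2: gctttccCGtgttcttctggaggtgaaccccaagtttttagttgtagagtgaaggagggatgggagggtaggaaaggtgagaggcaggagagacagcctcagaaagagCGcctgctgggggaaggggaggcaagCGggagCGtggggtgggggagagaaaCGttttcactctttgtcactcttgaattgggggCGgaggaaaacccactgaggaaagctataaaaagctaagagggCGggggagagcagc

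The Wnt7a stretch held 34 CpGs and 77.6% G and C, and the Dkk2 stretch 7 CpGs and 55.6%. The median over 32851 windows of the table was 6 CpGs and 52.4%, so Dkk2 lay near the middle and Wnt7a had more CpGs than 96.5% of windows. A set of 3 motifs was searched on both strands of the full windows, which run to 50 bases after the start. These were AGGTCA, the half-site of thyroid hormone and retinoid X receptors, its direct repeat with 4 bases between the copies, and CTTTGAT, a site of the TCF and LEF factors. The letters of none of the 3 were found in the Wnt7a or Dkk2 window. Over all windows, 16.3% held AGGTCA, 0.0152% the direct repeat and 3.73% CTTTGAT. Among members with a window, AGGTCA was found for 3 (Dkkl1, Frzb and Wnt16) and CTTTGAT for 2 (Wnt5b and Wnt11).

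Wnt5b, a ligand known mainly for signals that bypass β-catenin, lay just outside the threshold. It was at 18.6, 20.1, 19.0 and 34.8 CPM in controls 1 to 4 and at 13.2, 13.95 and 13.9 CPM in mutants 6, 7 and 8. All mutants were below all controls, and control 4 was far above the other controls. It was not called (log2 fold change -0.75, SE 0.22, edgeR adjusted p 0.0512). Without control 4 it was -0.49 with an adjusted p of 0.0363, without control 1 it was -0.84 (0.0173), and with an offset for genomic length it was -0.74 (0.00355). Wnt5b was called in 7 of the 16 alternatives, and in edgeR fits without 1 library its adjusted p reached 0.176. Its relative Wnt5a averaged 13.4 ± 1.38 CPM over controls (SD, n = 4) and 14.97 ± 1.81 over mutants (SD, n = 3), with no call (log2 fold change 0.16, SE 0.16). The other uncalled ligands were Wnt2, Wnt2b, Wnt3, Wnt4, Wnt9a, Wnt10a and Wnt16. Wnt2b was the most abundant of these per kb of exons, at 2.28 ± 0.762 CPM per kb in controls. Wnt10a had the largest log2 fold change (1.14, SE 0.53, adjusted p 0.230), but mutant 6, at 0.391 CPM, was below all controls, and no library had more than 24 reads.

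Among the frizzled receptors 1 of 7 tested was called, lower in mutants, and none was called higher. Fzd6 (ENSMUSG00000022297.15, chromosome 15, 39006034 to 39038188, plus strand), a receptor known for planar polarity and tissue patterning, was at 7.93, 7.56, 5.48 and 5.73 CPM in controls 1 to 4. Mutants 6, 7 and 8 had 3.99, 3.95 and 2.82 CPM, all below the lowest control. It was called lower (log2 fold change -0.90, SE 0.24, edgeR adjusted p 0.0368) on 71 to 100 control reads and 36 to 51 mutant reads. The call was lost in 6 of the 7 fits without 1 library, all but the one without control 4, at adjusted p-values of 0.0518 to 0.173, and with a term for glutamatergic markers (-0.89, adjusted p 0.0570).

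Fzd4, which serves both Wnt proteins and Norrin in blood vessel growth, was at 8.25, 7.10, 6.39 and 7.501 CPM in controls 1 to 4 and at 4.54, 5.05 and 3.91 CPM in mutants 6, 7 and 8. The groups did not overlap, yet the gene was not called (log2 fold change -0.70, SE 0.21, edgeR adjusted p 0.0537). Fzd3, needed for the growth of axon tracts, had the highest level per kb of exons of the frizzleds and the opposite sign. It was at 55.0, 59.02, 48.4 and 60.4 CPM in controls and at 69.6, 72.7 and 72.6 CPM in mutants, with every mutant above every control (log2 fold change 0.36, SE 0.11, adjusted p 0.0579). Fzd4 and Fzd3 were called with DESeq2 (adjusted p 0.0312 and 0.0428), and with limma-voom and the length offset too. Of the 16 alternatives, 3 called Fzd4 and 5 called Fzd3. In edgeR fits without 1 library their adjusted p-values reached 0.217 and 0.184. Fzd1, Fzd2, Fzd8 and Fzd9 were not called, at log2 fold changes from -0.76 (Fzd2) to 0.40 (Fzd1). Fzd2 was low, on 13 to 18 control reads and 7 to 10 mutant reads.

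Neither co-receptor was called in edgeR's test, and 0 of the 2 had an unadjusted p under 0.05. Lrp6 had 61.2, 69.9, 62.3 and 75.2 CPM in controls and 65.1, 62.4 and 61.2 CPM in mutants, and the groups overlapped (log2 fold change -0.09, SE 0.11). Lrp5 averaged 1.46 ± 0.443 CPM over controls (SD, n = 4) and 1.655 ± 0.421 over mutants (SD, n = 3), with a log2 fold change smaller than its error (0.18, SE 0.36). Per kilobase of exons, Lrp6 was at 4.91 ± 0.483 CPM in controls and Lrp5 at 0.150 ± 0.0455. This scale sets genes side by side only if reads were counted over exons alone.

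Lgr5 had the largest fall of the members. It encodes a receptor for R-spondins, best known as a marker of stem cells in gut and skin. Lgr5 (ENSMUSG00000020140.15, chromosome 10, 115450311 to 115587780, minus strand) was at 19.8, 22.1, 22.2 and 25.8 CPM in controls 1 to 4 and at 5.55, 8.08 and 6.10 CPM in mutants 6, 7 and 8. The highest mutant was below the lowest control by more than the range within either group. Means were 22.5 ± 2.47 CPM (SD, n = 4) and 6.58 ± 1.33 CPM (SD, n = 3), 3.42 times lower in mutants. It was called lower (log2 fold change -1.78, SE 0.18, edgeR adjusted p 9.76e-05), also in all 16 alternatives at -1.94 to -1.60.

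The other R-spondin receptors were not called. Lgr4, the broadly expressed member, was at 47.9, 57.4, 51.2 and 73.8 CPM in controls and 58.1, 48.8 and 49.2 CPM in mutants, with overlap (log2 fold change -0.15, SE 0.15). Lgr6 was at 4.12, 2.80, 2.66 and 3.47 CPM in controls and at 2.35, 1.01 and 1.72 CPM in mutants. All its mutants were below all controls, but on 11 to 52 reads the adjusted p was 0.110 (log2 fold change -0.93, SE 0.33). Of their ligands, Rspo2 was higher in each mutant (20.7, 22.7 and 20.1 CPM) than in any control (14.1, 14.96, 13.2 and 18.8 CPM) without a call (0.47, SE 0.16, edgeR adjusted p 0.0864). Without control 4 Rspo2 reached an adjusted p of 0.0142 at 0.58. It was called in 4 of the 16 alternatives, and in edgeR fits without 1 library its adjusted p rose as high as 0.283. Rspo1 (-0.44, SE 0.34) and Rspo3 (0.26, SE 0.33) were not called, and Rspo3 was high in control 4 and mutant 8 at 14.3 and 15.01 CPM against 5.94 to 8.39 in the other libraries.

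The antagonists held the largest rise of the members. Dkk2 (ENSMUSG00000028031.6, chromosome 3, 132085292 to 132180304, plus strand) encodes a secreted Dickkopf protein that binds Lrp5 and Lrp6 and, with Kremen proteins, dampens the β-catenin branch. Controls 1 to 4 had 0.555, 2.57, 1.83 and 4.03 CPM and mutants 6, 7 and 8 had 16.7, 9.55 and 11.7 CPM. The groups were far apart, on 7 to 50 control reads and 104 to 213 mutant reads, although the spread within each was wide. It was called higher (log2 fold change 2.49, SE 0.41, edgeR adjusted p 0.0025), and in all 16 alternatives at 2.18 to 2.92.

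The remaining antagonists and their partners were not called. Dkk3, a divergent Dickkopf protein, averaged 17.9 ± 4.1 CPM over controls (SD, n = 4) and 18.2 ± 2.85 over mutants (SD, n = 3), and Dkkl1 had at most 19 reads (log2 fold changes 0.03, SE 0.20, and 0.32, SE 0.57). Kremen1 (-0.46, SE 0.31) and Kremen2 (-0.43, SE 0.61), the Dickkopf receptors, overlapped between groups, and Kremen2 in mutants ran from 2 to 24 reads. Among the Wnt-binding antagonists all 5 tested genes had a log2 fold change below 0 and none passed in edgeR's test, where 1 had an unadjusted p under 0.05. Of all 16448 tested genes, 8560 had a log2 fold change below 0 and 22.5% an unadjusted p under 0.05. That gene, Sfrp4, also called by DESeq2 (adjusted p 0.042), came nearest, at 10.5, 11.8, 14.5 and 8.55 CPM in controls and 4.93, 8.45 and 7.27 CPM in mutants (-0.73, SE 0.24, edgeR adjusted p 0.0825). Its highest mutant was just under its lowest control, and without control 4 the adjusted p was 0.0179. Sfrp4 was called in 5 of the 16 alternatives, and in edgeR fits without 1 library its adjusted p rose as high as 0.296. Wif1 (15.6 ± 2.32 and 13.98 ± 2.63 CPM), Frzb, Sfrp1 and Sfrp2 had log2 fold changes from -0.73 (Frzb, SE 0.38) to -0.05 (Sfrp1, SE 0.28).

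The make-up of the families was then set out per kilobase of exons. Genes can be added or ranked on this scale only if reads were counted over exons alone. Whether reads in introns were counted is not given, and their part in these levels, sums and ranks was not tested. The 19 ligands together were at 17.7 to 25.3 CPM per kb in controls and 20.9 to 23.1 in mutants, so their sum overlapped between groups through control 4 alone. The other controls were at 17.7 to 18.8 CPM per kb, below every mutant. Wnt7a made up 6.93% to 11.8% of that sum in controls and 24.2% to 29.3% in mutants. Wnt5b made up 38.0% to 51.8% in controls and 22.7% to 25.1% in mutants, so that in mutants Wnt7a and Wnt5b had similar levels, 5.84 ± 0.868 and 5.16 ± 0.156 CPM per kb (SD, n = 3). In controls these were 1.84 ± 0.255 and 8.72 ± 2.95 CPM per kb (SD, n = 4). These shares restate the single-gene values above on another scale and were not tested.

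Fzd3 accounted for 40.2% to 48.9% of the frizzled sum in controls and at least 53.1% in mutants, while the sum itself overlapped (8.91 to 10.7 and 10.1 to 10.7 CPM per kb). Lgr4 was the main R-spondin receptor in every library. Lgr5 made up 16.2% to 19.2% of the 3 receptors in controls and 5.03% to 8.52% in mutants. The Dickkopf sum did not overlap, at 4.41 to 7.55 CPM per kb in controls and 8.42 to 10.4 in mutants. Within it Dkk2 went from 1.98% to 15.1% of the sum in controls to 30.6% to 43.1% in mutants, with Dkk3 making up most of the rest. By level per kb in controls the order of the members began with Lgr4 (9.79 ± 1.96), Wnt5b (8.72 ± 2.95), Wif1 (6.43 ± 0.956), Dkk3 (5.33 ± 1.22), Lrp6 (4.91 ± 0.483) and Fzd3 (4.35 ± 0.420), and each lay within the combined SDs of its neighbours. Wnt7a stood 13th in controls and 2nd in mutants, Dkk2 28th and 9th, and Lgr5 11th and 29th of the 37 tested.

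**Figure D3:**
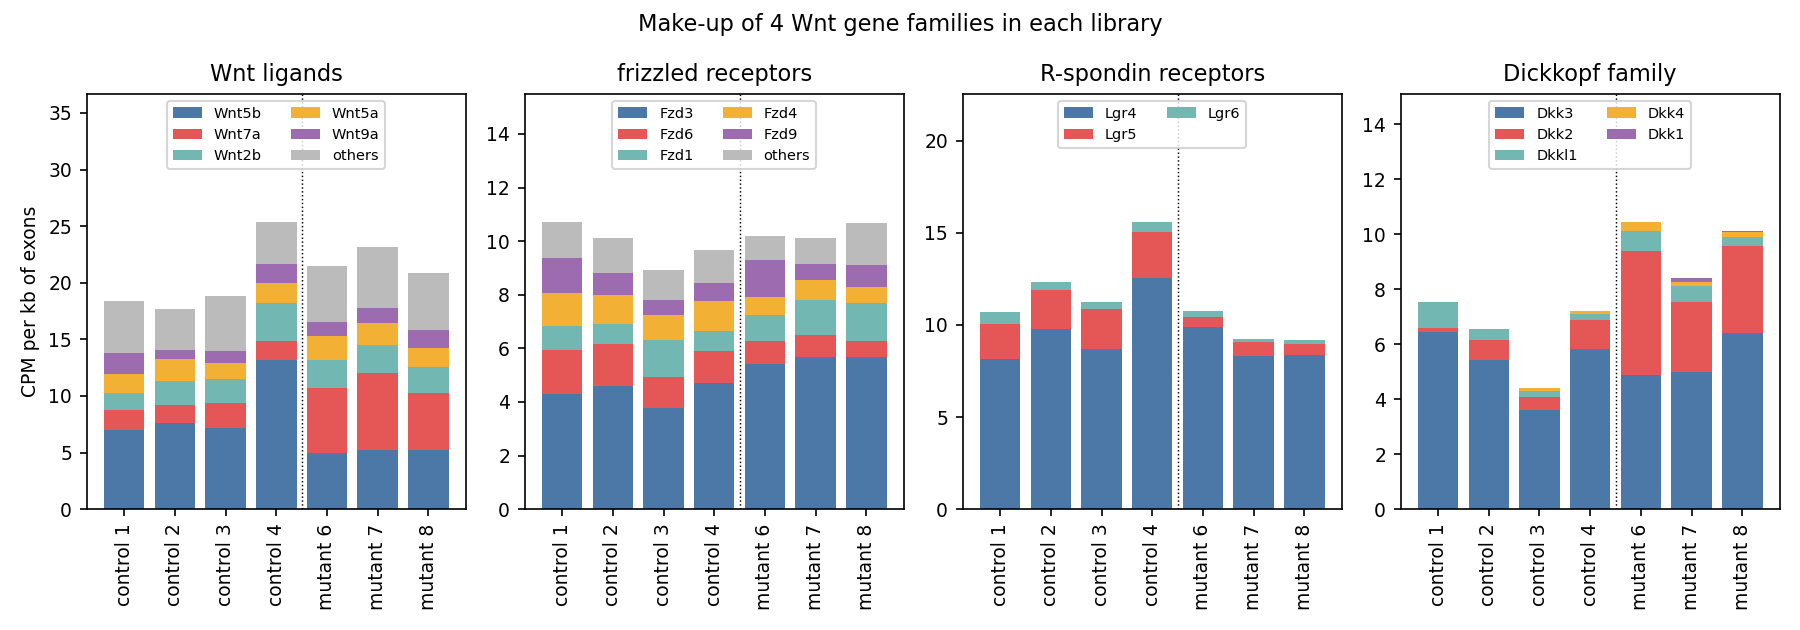
Stacked CPM per kb of exons in each of the 7 libraries for 4 gene families, with up to 5 genes drawn singly and the rest in grey; the dotted line parts controls from mutants. Wnt7a takes 24.2% to 29.3% of the ligand bar in mutants against 6.93% to 11.8% in controls, and Lgr5 narrows from at least 16.2% to at most 8.52% of the receptor bar.

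The 16 untested members were Wnt1, Wnt3a, Wnt6, Wnt8a, Wnt8b, Wnt9b, Wnt10b, Wnt11, Fzd5, Fzd7, Fzd10, Rspo4, Dkk1, Dkk4, Sfrp5 and Notum. None exceeded 12 reads in a library, and that value was for Wnt1 in mutant 7. Wnt3a was listed at 0 in every library. A count of 0 allows up to 3 reads, 0.217 to 0.279 CPM before TMM scaling depending on the library, for counting error only. Some genes that these cells or their neighbours are known to express, such as Dlx1, Gfap and P2ry12, were also listed at 0 in every library, so a 0 is given here only as listed.

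Axin2, a component of the β-catenin destruction complex that is itself induced by β-catenin signals, served as the members' feedback gene. It was at 7.30, 8.09, 8.45 and 10.1 CPM in controls and at 8.53, 9.18 and 8.21 CPM in mutants. The mutants lay inside the range of the controls (log2 fold change 0.03, SE 0.18, edgeR adjusted p 0.961).

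A further 61 genes of the pathway, from the export of Wnt proteins to β-catenin's nuclear partners and planar polarity, were looked up. Of 56 tested, 4 were higher (Wls, Dact1, Tnks and Bcl9), 1 was lower (Daam1) and 51 were not called, which is 8.93% called beside 9.42% of all tested genes. Their median log2 fold change was -0.0037, beside -0.01 for all tested genes. The groups did not overlap for 19.6%, beside 22.0% of all tested genes. The count was 3 without control 2, mutant 6 or mutant 8 and 2 without mutant 7.

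Wls carries Wnt proteins to the cell surface for release. It was at 32.0, 39.7, 33.0 and 36.5 CPM in controls and 58.0, 62.6 and 51.8 CPM in mutants, with no overlap (log2 fold change 0.70, SE 0.12, edgeR adjusted p 0.00316). Daam1, a formin that links dishevelled to the actin skeleton, was at 242, 293, 313 and 323 CPM in controls and at 176, 174 and 184 CPM in mutants. Each mutant was below every control (-0.72, SE 0.13, adjusted p 0.00428). Wls and Daam1 kept their calls in all 16 alternatives.

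Dact1, which binds dishevelled, went from 7.56 ± 1.33 CPM (SD, n = 4) to 13.6 ± 0.205 CPM (SD, n = 3) (0.85, SE 0.18, edgeR adjusted p 0.0108). Of its exon bases 34.9% are shared with 4930474H06Rik on the opposite strand, which had at most 3 reads, and without mutant 7 the adjusted p was 0.0549. Tnks, which marks Axin for destruction, was at 101 to 142 CPM in controls and 164 to 192 in mutants (0.51, SE 0.13, adjusted p 0.0247). Bcl9, which ties β-catenin to transcription, was at 64.4 to 105 CPM in controls and 124 to 130.5 in mutants (0.54, SE 0.15, adjusted p 0.0371). Leaving out control 2, control 3 or a single mutant ended the calls of both Tnks and Bcl9, with adjusted p-values of 0.0569 to 0.136, and the glutamatergic term ended that of Bcl9 (adjusted p 0.0574). Porcn, the enzyme that attaches the lipid to Wnt proteins, averaged 188 ± 17.8 CPM over controls and 152 ± 14.5 over mutants and was not called (-0.31, SE 0.12, adjusted p 0.142). Ctnnb1, the gene of β-catenin, was not called either (0.05, SE 0.15). Of the 3 target genes in this list, Sp5 had too few reads to be tested. Myc was higher in each mutant (11.7 to 12.7 CPM) than in any control (7.10 to 10.6 CPM) without a call (0.32, SE 0.19, edgeR adjusted p 0.344). Ccnd1 was not called (0.16, SE 0.41). The uncalled gene nearest the threshold was Vangl1, of planar polarity, with no overlap between groups (0.80, SE 0.25, edgeR adjusted p 0.0732). Reck and Adgra2, membrane proteins that help cells read Wnt7a and Wnt7b, were at 0.13 (SE 0.12) and -0.07 (SE 0.17) and were not called.

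**Figure D4:**
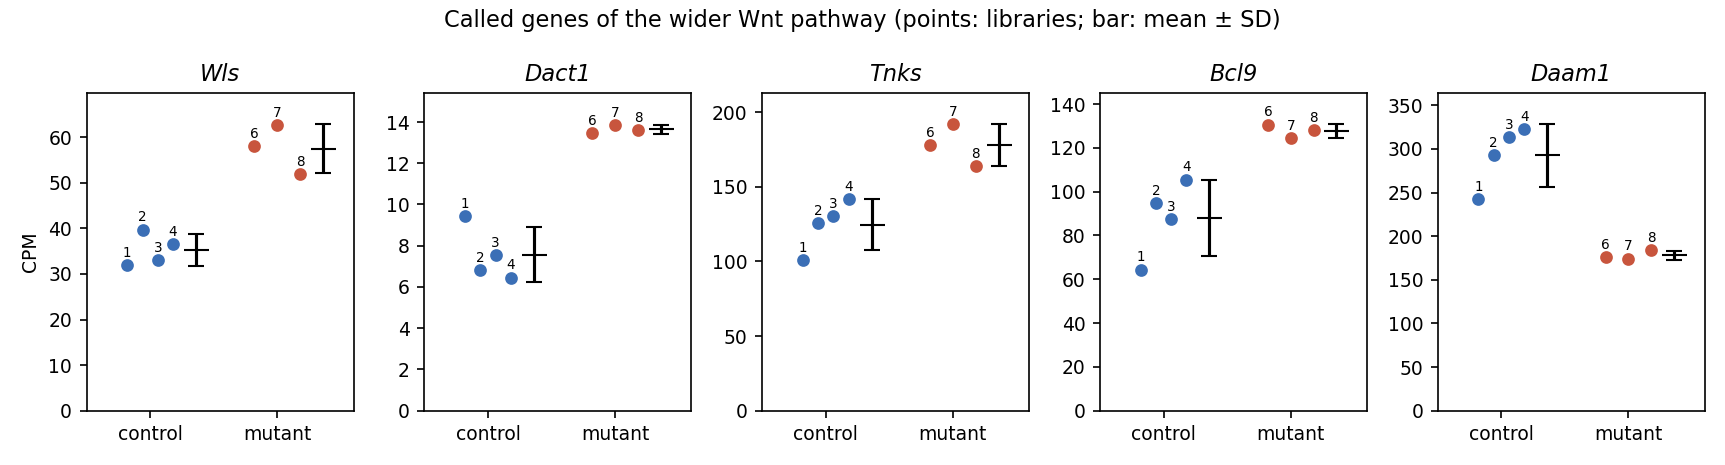
CPM of the 5 called genes among the 56 tested of the wider pathway, by library, with the replicate number above each point and the mean ± SD beside each group. Wls, Dact1, Tnks and Bcl9 lie higher in the 3 mutants than in the 4 controls, and Daam1 lies lower.

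Markers of the classes of GABAergic neurons moved between the groups beside these genes, and their part in the Wnt results was not tested. Of 6 parvalbumin neuron markers 3 were lower (Pvalb, Syt2 and Kcnc1) and none higher, beside 9.42% of all tested genes called in either direction. Kcns3, Tac1 and Pthlh were not called, at log2 fold changes of 0.23, -0.0044 and -0.28. The sum of the 6 was 772 to 1003 CPM in controls and 438 to 492 CPM in mutants. Kcnc1 was a large part of it, with means of 518 CPM in controls and 195 CPM in mutants. Of 6 somatostatin neuron markers 3 were higher (Sst, Calb1 and Crhbp) and none lower. Elfn1, Chodl and Grin3a were not called. Elfn1 had a log2 fold change of 0.43, and Chodl averaged 5.16 CPM over controls and 5.62 CPM over mutants, with overlap for both. The sum of the somatostatin markers was 861 to 1002 CPM in controls and 1407 to 1721 CPM in mutants. VIP and LAMP5 markers had calls in both directions, and their sums overlapped. Of the general GABAergic markers 0 of 6 tested were called in edgeR's test and 0 had an unadjusted p under 0.05, with sums of 5078 to 6430 and 5658 to 6928 CPM.

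Markers of other cells were also present. Astrocyte markers summed to 358 to 517 CPM in controls and 300.4 to 343 CPM in mutants, without overlap. Of these markers 1 of 7 tested was called (Slc4a4, lower), beside 9.42% of all tested genes, and Gfap was listed at 0. Glutamatergic neuron markers, at 334 to 471 and 276 to 354 CPM, and endothelial markers, at 50.8 to 106 and 52.4 to 76.5 CPM, overlapped and had no call. Meningeal fibroblast markers were at 4.61 to 7.77 and 4.50 to 6.65 CPM, and mural cell markers at 27.4 to 79.0 and 30.5 to 45.1 CPM, again with overlap and no call. Striatal projection neuron markers were at 85.4 to 143 and 138 to 169 CPM (Rgs9 called higher), oligodendrocyte markers at 152 to 179 and 171 to 199.7 CPM (Mog called higher), and microglial markers at 13.6 to 18.2 and 17.7 to 22.4 CPM with P2ry12 listed at 0. With a term for glutamatergic markers in the model, Wnt7a, Wnt7b, Dkk2 and Lgr5 kept their calls and Fzd6 did not. No term for astrocytes or the other cell types was fitted, so their part in the Wnt results was not tested.

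**Figure D5:**
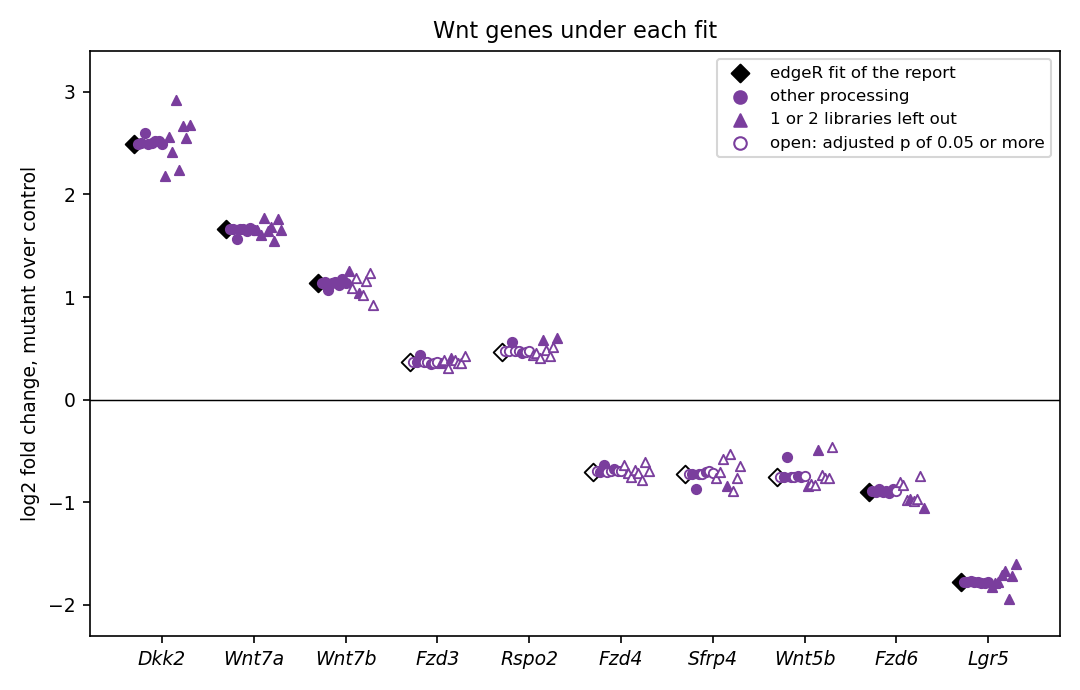
Log2 fold change of mutant over control for 10 Wnt genes in the reported fit (diamonds), 8 other ways of processing (circles) and 8 fits without 1 or 2 libraries (triangles); open symbols had an adjusted p of 0.05 or more. Dkk2, Wnt7a and Lgr5 are filled throughout, and no gene crosses 0.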

How the data were processed

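Nuclear RNA was measured in sorted nuclei, with cDNA from SMART-Seq v4 and libraries from Nextera XT per the labels' protocols. The authors deposited counts of reads per gene, whole numbers without normalization. Bowtie2 2.5.3 and the builds mm10 and GRCm38 are named in the submitters' processing notes. The counting program, the use of strand and the treatment of intron reads are not given in the sources used here. All 55450 gene identifiers were found in GENCODE M21 (GRCm38), which gave symbols, coordinates and exon lengths. The table of mutant 10, keyed by symbol, was left out as a repeat of mutant 7, where the design had 4 mutants.

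Counts were fitted in R 4.3.3 with edgeR 4.0.16 (filterByExpr with least count 10 and least total 15, TMM, robust glmQLFit, glmQLFTest, group as the only term), with Benjamini-Hochberg adjustment over 16448 genes; tests were two-sided. The SE is the log2 fold change divided by the square root of F. Alternatives used DESeq2 1.42.0, limma 3.58.1 (voom with quality weights), RLE factors, no filter or 1 CPM in 3 libraries, an offset for genomic length, terms for Y-linked reads or glutamatergic markers, and fewer libraries. Length trends used log2(CPM + 0.5). Each library is a separate animal, and PCR reads carry no molecular identifiers, so read counts understate counting error. The members and lists were chosen with earlier results of these data known. By rule, each called gene of the members and of the wider pathway is named with its values, and other tested members by level or log2 fold change; uncalled genes of the wider pathway and markers were picked after their values were seen.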

Additional observations from a re-analysis of the deposited data

Results flagged for a closer look

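Among the 4 controls, 42 values were examined for a single library far from the rest (the 37 tested members and the 5 called genes of the wider pathway); 3 mutants are too few for this. Chance flags about 1 in 20 such groups, and 1 value was flagged. Wnt5b reached 34.8 CPM in control 4, against 18.6 to 20.1 CPM in the other controls, and that gap was 0.905 of the range of the group, above Dixon's critical value. Wnt5b spans 111817 bases. The log2 ratio of the other controls to control 4 had a Spearman correlation with genomic length of -0.61 to -0.38. For the ratio of control 1 to controls 2 and 3 it was -0.51 and -0.46. Control 1 had Wnt5b at 18.6 CPM, the lowest of the controls. Control 4 had 4 reads of Y-linked genes and mutant 8 had 3, with Wnt5b in mutant 8 at 13.9 CPM. The part of either in the value of control 4 was not tested. Without control 4 the log2 fold change of Wnt5b was -0.49 (adjusted p 0.0363).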

How the results depend on the processing

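With DESeq2, limma-voom with quality weights and the genomic length offset, 9, 10 and 10 members were called, and all 5 of the report were among them. Of all genes, 1910 were called with DESeq2, 3147 with limma-voom and 2753 with the length offset, beside 1549 in the report, and the length offset also called 8 of the wider pathway list. Without 1 library the counts ran from 734 to 2347 for all genes, from 3 to 9 for the members and from 2 to 7 for the wider pathway; without mutant 7 they were 734, 3 and 2, without control 4 they were 2347, 9 and 7. The fit without control 4 and mutant 6 together called 5 members, but not the same ones: Wnt7b was lost and Rspo2 gained. It was made because the library name of control 4 appears in the name of mutant 6's table. Pvalb was at 2.58 CPM in mutant 6 as assigned here and at 1.29 and 1.56 CPM in mutants 7 and 8. In controls it was at 35.7 to 47.8 CPM, with 47.8 CPM in control 4. An exchange of tables was not tested. Library and table names disagree for mutants 7 and 8 too, but by the table names both would stay mutants. Dkk2, Wnt7a, Wnt7b, Lgr5, Fzd6, Wnt5b, Fzd4, Fzd3, Sfrp4 and Rspo2 kept their direction in all 16 alternatives. Sign changes arose in uncalled genes only. With a term for Y-linked reads Dkk3 was at -0.0037 and Wnt2 at 0.0732, with a term for glutamatergic markers Wnt2 was at 0.0388, and without control 4 and mutant 6 together Dkkl1 was at -0.19 and Fzd9 at -0.32. For fits without 1 library the ranges that cross 0 were Dkk3 (-0.12 to 0.14), Kremen2 (-2.06 to 0.0099), Rspo3 (-0.10 to 0.61), Sfrp1 (-0.20 to 0.20), Sfrp2 (-0.42 to 0.0354), Axin2 (-0.0343 to 0.12), Fzd8 (-0.16 to 0.36), Fzd9 (-0.24 to 0.44), Wnt2 (-0.25 to 0.42), Wnt2b (-0.0691 to 0.32), Wnt9a (-0.13 to 0.23). The cause of these shifts was not tested. Some tested members rest on few reads, such as Fzd2 with 7 to 18 in a library, where counting error is large. No paired analysis was possible because the groups share no replicate number.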
